A study of Mus musculus with 30 samples.

Results

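This report describes what happened to gene expression between passage 10 (P10) and passage 20 (P20) in mouse embryonic stem cells (ESCs) kept in Enhanced Metabolic Media (EMM). The members are the 6 RNA-seq libraries labelled EMM in the passage experiment, 3 at P10 and 3 at P20, of 30 libraries in the whole series. They were taken by their labels alone, and the 16054 genes that passed a filter on low counts, of 55487 in the count table, were tested in one fit across the 18 passage libraries. The cells were E14tg2a, an established male ESC line, so every group is a model of 1 line, and they were grown without feeder cells. EMM is the serum medium with LIF in which D-galactose replaces D-glucose and pyruvate. The other 2 media of the same experiment serve as the comparison, again with 3 libraries at P10 and 3 at P20 in each. Serum/LIF is the serum medium that keeps glucose. The other, 2i/LIF, is a defined medium without serum that holds LIF and inhibitors of the kinases MEK and GSK3. It therefore differs from EMM and Serum/LIF in its base and in serum as well as in the inhibitors. The separate parts of these differences in the comparisons with 2i/LIF were not tested. A separate time course with 12 libraries, in which Serum/LIF cells were moved into EMM for 3, 9 or 24 h, gave an independent list of the genes that respond early. No label names an animal, since all cells are of the line, and the study's methods state that replicates came from independent experiments.

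ESCs are derived from the inner cell mass of the blastocyst and self-renew under the cytokine LIF. In the naive state they resemble the epiblast before implantation and depend on factors such as Tbx3, Tfcp2l1 and Klf4, whereas formative and primed cells, which resemble the epiblast around and after implantation, express Pou3f1, Zic2, Fgf5 and the DNA methyltransferase Dnmt3b. Galactose enters glycolysis slowly through the Leloir pathway, and cells fed on it make most of their ATP by oxidative phosphorylation in the mitochondria.

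Total counts ranged from 7329835 to 20111927 in the P10 EMM libraries and from 16678618 to 27912928 in the P20 EMM libraries, so low genes were measured less precisely at P10. All 8 ESC markers examined were detected in each EMM library, with Pou5f1 at 24339, 26877 and 30907 normalized counts at P10 and 17690.2, 18022 and 18107 at P20. Normalized counts are counts scaled to a common library size by the TMM method. Markers of other cells were low: the summed level of the 6 primitive endoderm markers was 92.0 to 96.2 normalized counts at P10 and 130.2 to 210.4 at P20, that of the 5 trophectoderm markers 126 to 193 and 161 to 168, and that of the 5 mesendoderm markers 12.1 to 20.6 and 28.3 to 47.4. The 4 neural markers summed to 309 to 399 at P10 and 616 to 688 at P20, and the 8 fibroblast markers to 328 to 386 and 193 to 230.0. That fall was of Thy1 alone: the other 7 fibroblast markers summed to 28.9, 24.9 and 68.7 at P10 and 107, 95.1 and 89.9 at P20, with Col1a1 and Col3a1 called higher. Each of these 2 calls was lost under 7 of the alternative settings described below. Lum and Postn of the fibroblast list were at or under a floor of 3 counts in each EMM library, as were Elf5, Gsc and Mesp1 of the others. The part of such cells in the results below was not tested. Neither the labels nor the methods give the date of library preparation, so passage number and the time of preparation cannot be told apart.

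Between P10 and P20 the EMM cultures changed broadly. Gene positions are those of GENCODE M21 on GRCm38. A gene was called when its adjusted p was under 0.01 and its log2 fold change was over 1 in size. By that rule 898 genes (5.59% of those tested) were higher and 473 (2.95%) lower at P20 in edgeR's quasi-likelihood test with Benjamini-Hochberg adjustment, the source of every adjusted p below. By adjusted p alone the numbers were 2139 (13.3%) higher and 1917 (11.9%) lower, and the gene lists below are counted against these shares. The median log2 fold change of all genes was 0.04. All 3 P20 libraries lay above all 3 P10 libraries for 30.6% of the genes tested and below them for 26.3%. Statements below that groups did not overlap are to be read beside these shares. Over the same passages 188 genes (1.17%) rose and 108 (0.673%) fell in Serum/LIF, and 571 (3.56%) rose and 1058 (6.59%) fell in 2i/LIF. Tested directly, the passage change in EMM was the more positive for 812 genes (5.06%) and the more negative for 537 (3.34%) when set against that in Serum/LIF, and for 1643 (10.2%) and 1011 (6.3%) against that in 2i/LIF.

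Most genes called in EMM were not called in the other media. Of the 898 genes that rose in EMM, 30 also rose in Serum/LIF, which is 3.34% of the EMM genes and 16% of the Serum/LIF genes, while 58 fell there, which is 6.46% of the EMM genes and 53.7% of the 108 genes that fell in Serum/LIF, while 5.59% of all genes tested rose in EMM. Of the 473 genes that fell in EMM, 7 also fell in Serum/LIF (1.48% of the EMM genes and 6.48% of the Serum/LIF genes) and 28 rose there (5.92% and 14.9%). In 2i/LIF, 46 of the 898 also rose (5.12% of the EMM genes and 8.06% of the 2i/LIF genes) and 158 fell (17.6% and 14.9%). Of the 473, 61 also fell in 2i/LIF (12.9% and 5.77%) and 57 rose (12.1% and 9.98%). These pairs of comparisons share no library. Over all genes tested, the passage change in EMM had a Pearson correlation of 0.058 with that in Serum/LIF and −0.105 with that in 2i/LIF. These are descriptions across genes, which are not independent replicates. The gap between EMM and Serum/LIF, taken as the size of the difference in mean log2 expression over the same 16054 genes, had a median of 0.428 at P10 and 0.321 at P20, and the number of genes more than 1 log2 unit apart was 3559 (22.2%) at P10 and 2172 (13.5%) at P20. Counting noise in low genes adds to such a gap, and the median total of the EMM libraries was 10551862 counts at P10 and 21533269 at P20. The part of depth in this difference was not tested.

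**Figure D1:**
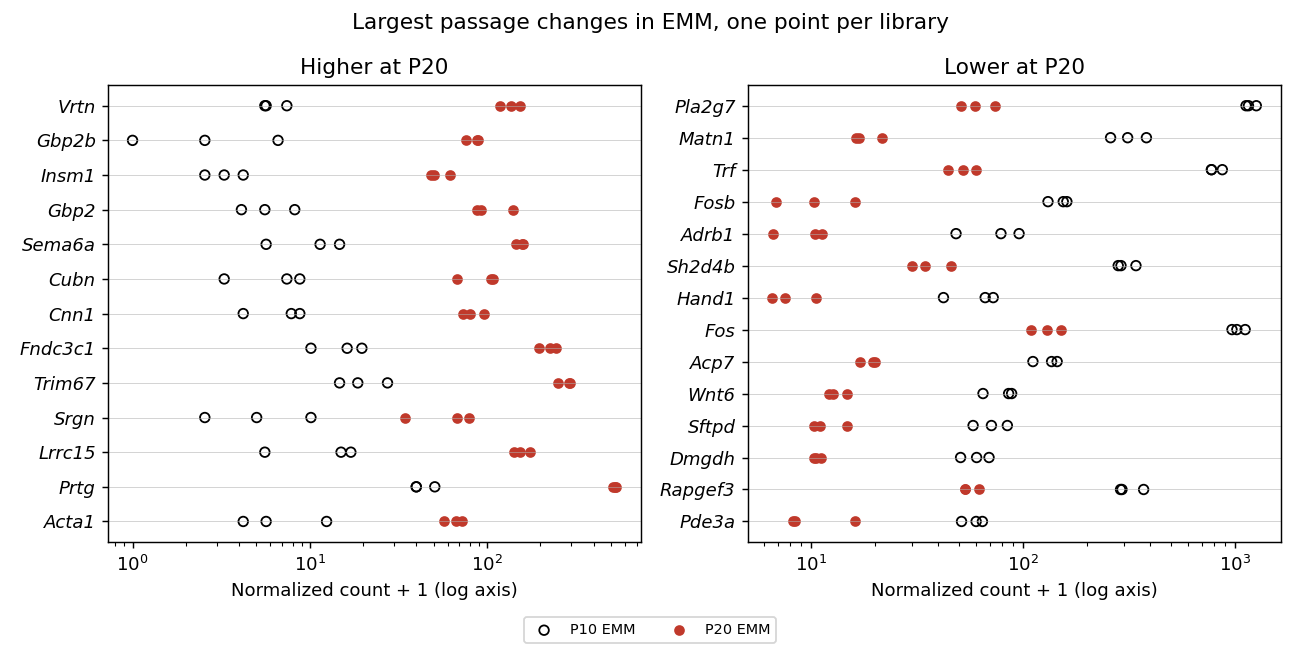
Normalized counts plus 1 (log axis) of 13 of the 14 named genes with the largest rise (left) and the 14 with the largest fall (right) between P10 (open circles) and P20 (filled circles) in EMM, one point per library. No P10 library overlaps a P20 library for any of these genes, which the rule that chose them required (30.6% of all genes tested had no overlap with P20 higher and 26.3% with P20 lower).

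Among the 14 largest rises, Vrtn (chr12:84641019-84651455), a nuclear factor known for its part in setting vertebral number, was at 6.43, 4.68 and 4.58 normalized counts at P10 and 118, 135 and 154 at P20. Its log2 fold change was 4.58 ± 0.25 (SE, here and below; adjusted p = 4.21e-10). Serum/LIF cells held 236 ± 37.7 at P10 and 126 ± 9.57 at P20 (mean ± SD, n = 3), so the P20 EMM values lay around the P20 Serum/LIF mean and the P10 EMM values far below both. Prtg, protogenin, an immunoglobulin-family receptor of the early embryo, rose from 49.8, 38.97 and 38.9 normalized counts at P10 to 513, 528 and 537 at P20 (3.57 ± 0.29, adjusted p = 7.46e-08), while in Serum/LIF it was at 1414 ± 176 at P10 and 898 ± 175 at P20. Fndc3c1 was at 15.3, 18.7 and 9.16 at P10 and 225, 197 and 245 at P20 (3.88 ± 0.23), and the neuronal ubiquitin ligase gene Trim67 at 17.7, 26.5 and 13.7 at P10 and 252, 295 and 292 at P20 (3.84 ± 0.31). Insm1, a zinc finger factor of neuroendocrine cells, stood at 3.21, 1.56 and 2.29 at P10 and 49.3, 60.99 and 47.1 at P20. The 3 P10 libraries of each of these genes lay close together and far below all 3 P20 libraries, and the rule that chose them required no overlap. In bulk RNA a change in the number of cells that express a gene and a change in RNA per cell cannot be told apart.

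Sema6a, a transmembrane semaphorin and another of the 14, was at 10.4, 4.68 and 13.7 at P10 and 158, 157 and 144 at P20. Sema6a fell over the same passages in Serum/LIF, with a log2 fold change of −1.91, and with Fndc3c1 it was among the genes with the largest positive differences between the passage changes of EMM and Serum/LIF, within the filters of the named genes, 5.91 (adjusted p = 5.08e-11). Cubn, an endocytic receptor of the visceral endoderm, was at 6.43, 7.79 and 2.29 at P10 and 66.98, 107 and 104 at P20 (3.95 ± 0.56). Srgn, the proteoglycan serglycin, was at 4.02, 1.56 and 9.16 at P10 and 33.5, 78.3 and 66.7 at P20. Lrrc15 was at 16.1, 14.03 and 4.58 at P10 and 174, 142 and 154 at P20. In Serum/LIF the passage change had the opposite sign for 11 of the 14 rises and for 5 of the 14 falls described next.

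The largest fall was that of Pla2g7 (chr17:43568098-43612201), which encodes a secreted hydrolase of platelet-activating factor. It was at 1162, 1266 and 1132 normalized counts at P10 and 50.2, 58.2 and 73.3 at P20 (log2 fold change −4.28 ± 0.23, adjusted p = 5.32e-10), against 53.7 ± 10.1 at P10 and 40.6 ± 0.693 at P20 in Serum/LIF. Trf, transferrin, fell from 777, 874 and 777 normalized counts at P10 to 51.2, 59.3 and 43.5 at P20 (−3.97 ± 0.21, adjusted p = 3.44e-10), and Serum/LIF held 83.97 ± 14.7 at P10 and 100.2 ± 6.12 at P20. Matn1, a cartilage matrix protein, was at 259, 312 and 383 at P10 and 15.8, 20.7 and 15.2 at P20 (−4.17 ± 0.32). The P20 EMM libraries of Pla2g7 lay near the Serum/LIF level and those of Trf below it. By the direct test Trf and Matn1 differed from Serum/LIF by −4.21 (adjusted p = 1.33e-08) and −4.68 (adjusted p = 1.95e-06).

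Hand1, a factor of trophoblast giant cells and lateral mesoderm and another of the 14 falls, was at 71.5, 65.5 and 41.2 at P10 and 5.58, 9.51 and 6.53 at P20 (−3.02 ± 0.43). The ligand gene Wnt6 was at 87.6, 63.9 and 84.8 at P10 and 11.2, 11.8 and 13.8 at P20. Adrb1, the β1-adrenergic receptor, was at 47.4, 95.1 and 77.9 at P10 and 10.2, 5.60 and 9.43 at P20. Rapgef3, an exchange factor switched on by cyclic AMP, was at 289, 293 and 371 at P10 and 61.4, 52.6 and 52.2 at P20 (−2.51 ± 0.19). Pde3a, which breaks cyclic AMP down, was at 63.5, 59.2 and 50.4 at P10 and 7.44, 15.1 and 7.25 at P20 (−2.50 ± 0.44). The groups of these genes did not overlap, which the rule that chose them required and which held with P20 lower for 26.3% of all genes tested. The other falls of this size were those of Sh2d4b (−3.09 ± 0.18), Acp7 (−2.85 ± 0.26), Sftpd, a lung surfactant protein (−2.67 ± 0.40), and Dmgdh, a mitochondrial enzyme of choline breakdown (−2.63 ± 0.43).

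The immediate-early genes Fos and Fosb, also among the 14, fell in all 3 media. Fos, which encodes a subunit of the AP-1 transcription factor, was at 1121, 1024 and 971 normalized counts at P10 and 109, 129 and 151 at P20 in EMM (−3.001 ± 0.225), and its log2 fold change was −5.40 in Serum/LIF and −6.93 in 2i/LIF. The fall in EMM was the smaller one, by 2.40 against Serum/LIF (adjusted p = 4e-05). Fosb was at 154, 161 and 131 at P10 and 9.30, 15.1 and 5.80 at P20 in EMM, with log2 fold changes of −3.82 ± 0.30 in EMM, −6.49 in Serum/LIF and −6.87 in 2i/LIF. Egr1, of the same class, was at 1316, 1016 and 907 at P10 and 669, 696 and 638 at P20 (−0.70 ± 0.12), against a fall of 8.63 on the log2 scale in 2i/LIF.

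A run of 4 neighbouring tested genes on chromosome 3 rose together. Gbp7, Gbp3, Gbp2b and Gbp2 encode guanylate-binding proteins, GTPases known for being switched on by interferon and for defence inside the cell, and they lie side by side at 142530342 to 142638008 of the GRCm38 build (GENCODE M21). The run was noticed after the values were seen, and it is 1 of 3 runs of 4 or more consecutive tested genes called in the same direction. Interferon signals reach such genes through the ISRE, a promoter element bound by STAT and IRF factors. The 150 bases before each start site (RefSeq, GRCm38.p6, plus strand) are shown because all 4 hold the core of that element, in capitals, searched on both strands as GAAANNGAAA and here lying on the minus strand, so that it reads as TTTC, any 2 bases and TTTC.
Gbp7, chr3:142530186-142530335: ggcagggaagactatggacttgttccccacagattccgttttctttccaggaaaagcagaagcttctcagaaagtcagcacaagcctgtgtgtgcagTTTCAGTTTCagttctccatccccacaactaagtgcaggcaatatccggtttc
Gbp3, chr3:142559894-142560043: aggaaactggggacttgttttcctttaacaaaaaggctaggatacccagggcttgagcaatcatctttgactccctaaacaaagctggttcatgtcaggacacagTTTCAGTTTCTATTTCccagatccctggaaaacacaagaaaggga
Gbp2b, chr3:142594697-142594846: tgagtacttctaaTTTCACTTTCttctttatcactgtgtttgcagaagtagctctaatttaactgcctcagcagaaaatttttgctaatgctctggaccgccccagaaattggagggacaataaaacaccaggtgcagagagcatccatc
Gbp2, chr3:142620513-142620662: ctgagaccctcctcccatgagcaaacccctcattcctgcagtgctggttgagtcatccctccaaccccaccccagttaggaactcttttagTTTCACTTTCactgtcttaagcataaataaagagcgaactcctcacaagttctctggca

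The core begins 53 bases before the start of Gbp7, 137 before that of Gbp2b and 59 before that of Gbp2, and in Gbp3 2 overlapping copies begin 45 and 39 bases before it. Of all 32851 promoter windows in that table, each 300 bases long, 3.44% hold this core. The table gives 2 starts for Gbp3, of which 1 that holds the core is shown. A match describes the letters and does not show that a factor is bound.

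Gbp2 was at 7.23, 3.12 and 4.58 normalized counts at P10 and 86.5, 91.8 and 140.0 at P20 (log2 fold change 4.23 ± 0.37, adjusted p = 1.62e-07). Gbp2b was at 5.63, 1.56 and 0 at P10 and 75.4, 87.3 and 88.5 at P20 (4.58 ± 0.39, adjusted p = 1.25e-07), and its few counts at P10 leave the fold imprecise, 4.27 to 6.32 over the alternatives and highest without P10 EMM replicate 1. Gbp3 was at 0.804, 0 and 2.29 at P10 and 22.3, 12.3 and 25.4 at P20 (adjusted p = 0.000221). Gbp7, the lowest, was at 1.61, 0 and 0 at P10 and 6.51, 11.2 and 15.2 at P20 (adjusted p = 0.0021), and both had so few counts at P10 that no fold is given. All 3 P20 libraries were above all 3 P10 libraries for each of the 4. The level reached at P20 remained under that of Serum/LIF, where Gbp2 was at 962 ± 212 at P10 and 478 ± 56.9 at P20 and Gbp2b at 837 ± 134 at P10 and 411 ± 21.1 at P20, and 2i/LIF cells held 2.58 ± 0.89 at P10 and 7.31 ± 3.77 at P20 for Gbp2. The direct test gave a more positive passage change in EMM than in Serum/LIF for Gbp2 (5.24, adjusted p = 7.65e-08) and Gbp2b (5.61, adjusted p = 5.27e-08). These genes resemble each other in sequence, and how the counting divided shared reads among them is not given, so their separate levels are uncertain.

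Psmb8, an interferon-inducible subunit of the immunoproteasome, which trims peptides for MHC class I, had 0 counts in all 3 P10 EMM libraries and 18.6, 15.1 and 21.04 normalized counts at P20, which is at least 3.92-fold higher than a floor of 3 counts per library (adjusted p = 1.45e-05). Serum/LIF held 223 ± 52.1 at P10 and 112 ± 13.7 at P20. Its promoter is shown for the other interferon element, the GAS, searched as TTCNNNGAA on both strands, capitals marking the match that begins 97 bases before the start. This element is in 8.3% of all promoter windows.
Psmb8, chr17:34198045-34198194: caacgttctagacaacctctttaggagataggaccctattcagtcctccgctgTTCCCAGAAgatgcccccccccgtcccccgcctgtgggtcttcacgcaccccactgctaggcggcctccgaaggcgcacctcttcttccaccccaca

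The list of immunoproteasome and MHC class I genes had 5 of 19 tested members higher and 0 lower (3 lower at an unadjusted p under 0.05 in edgeR and 1 lower by DESeq2), with a median log2 fold change of 0.44, against −0.56 in Serum/LIF and 0.29 in 2i/LIF. Besides Psmb8, the MHC class I genes H2-Q4 and H2-K1 rose, H2-Q4 being at 81.2, 73.3 and 68.7 normalized counts at P10 and 259, 302 and 308 at P20 (1.94 ± 0.18). H2-K1 was at 169.6, 195 and 153 at P10 and 295, 326 and 369.9 at P20 (0.93 ± 0.17). The peptide transporter gene Tap1 was at 37.8, 42.1 and 29.8 at P10 and 75.4, 67.1 and 78.3 at P20 (adjusted p = 0.00552, and up to 0.0537 over the alternatives, with the call lost when any 1 of the 6 EMM libraries was left out), and the interferon-response factor Irf1 at 342, 387 and 309 at P10 and 522, 547 and 567 at P20 (0.65 ± 0.10). For each of these genes the P20 libraries lay above the P10 libraries. The median of the list was −0.17 when genes needed at least 10 counts in each library. Oasl2, an interferon-induced gene outside the list and named after its values were seen, was at 0.804, 0 and 0 at P10 and 18.6, 17.9 and 18.1 at P20 (adjusted p = 8.21e-05). ISRE cores were in the promoter windows of none of the 5 members that rose and 6 of the 11 not called that had one, and GAS matches in those of 2 of the 5, Psmb8 and Irf1, and 1 of the 11.

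The time course gave an independent view of the same medium. In it, in the same edgeR test, 561 genes were raised and 752 lowered after 24 h in EMM by the same rule (3.5% and 4.69% of those tested), and none of its libraries enters the passage comparison. Of the 478 raised genes that were tested in the passage libraries, 140 (29.3%) were lower and 55 (11.5%) higher at P20 than at P10 in EMM by adjusted p alone. Of the 691 lowered genes, 178 (25.8%) were higher and 25 (3.62%) lower. The genes lowered at 24 h had a median log2 fold change of 0.6 from P10 to P20, and the 3 P20 libraries stood at 0.55, 0.65 and 0.62 log2 units above the P10 mean, with the P10 libraries at 0.09, −0.02 and −0.06. The genes raised at 24 h had a median of −0.27, with the P20 libraries at −0.22, −0.26 and −0.18 and the P10 libraries at 0.03, −0.03 and 0.03. The groups did not overlap in either list.

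This second median depended on which genes were taken as raised: it was −0.01 without the fold threshold and −0.01 for genes raised at 9 h, whereas the median of the lowered genes was 0.11 and 0.46. In Serum/LIF the medians were 0.09 for the raised and −0.02 for the lowered genes. In 2i/LIF they were −0.36 and 0.23, and 130 (27.2%) of the raised genes were lower and 111 (16.1%) of the lowered genes higher at P20, against 15.2% and 13.1% of all genes there, so a change of the same sign also appeared in a medium that keeps glucose. The 13483 other genes had a median of 0.03 in EMM.

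**Figure D2:**
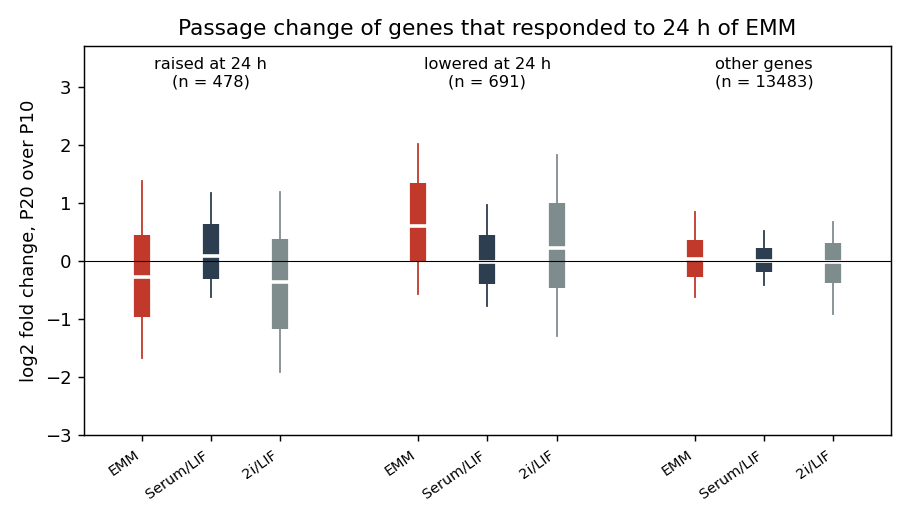
Log2 fold change of P20 over P10 in EMM, Serum/LIF and 2i/LIF for genes raised by 24 h of EMM in the separate time course (n = 478), lowered (n = 691) or neither (n = 13483). White lines are medians, thick bars run from the 25th to the 75th percentile and thin lines from the 10th to the 90th, and in EMM the lowered genes sit mostly above 0 (median 0.6) and the raised genes mostly below it (median −0.27).

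Single genes are given here with their own 24 h change, which for Ccnd1 and Sirt1 was under the fold threshold of the lists. Mycn, the Myc-family gene of epiblast and ESCs, fell by 1.51 on the log2 scale at 24 h of EMM and rose from P10 to P20, from 797, 675 and 657 normalized counts at P10 to 2591, 2577 and 2602 at P20 (1.86 ± 0.11, adjusted p = 1.16e-09). Serum/LIF cells held 3878 ± 203 at P10 and 2902 ± 164 at P20. The cyclin gene Ccnd1 fell by 0.97 at 24 h and was at 127, 129 and 147 at P10 and 702, 632 and 598 at P20 in the passage libraries (2.28 ± 0.11), still below Serum/LIF with 2307 ± 254 at P10 and 2109 ± 67.9 at P20. In the other direction, Pla2g7 had risen by 1.83 at 24 h, Matn1 by 2.19, the isocitrate dehydrogenase gene Idh2 by 1.32, the deacetylase gene Sirt1 by 0.88 and the antioxidant gene Nqo1 by 1.08. All 5 fell from P10 to P20. Of the 14 largest falls, 13 were tested in the time course, and 8 of these had been raised at 24 h and 0 lowered by adjusted p under 0.01 alone. Among the 13 largest rises tested there, 7 had been lowered and 5 raised, Acta1 (2.15) and Lrrc15 (1.26) among the raised. By that rule 21.8% of all genes tested in the time course were raised at 24 h and 22.2% lowered.

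Naive pluripotency genes fell and several formative genes rose in EMM. Of 17 naive genes tested, 9 were lower and 1 higher at P20, with a median log2 fold change of −0.54, while the medians were 0.43 in Serum/LIF and −0.01 in 2i/LIF. The T-box factor gene Tbx3 (chr5:119670669-119684724), which sustains self-renewal, was at 4608, 4137 and 4378 normalized counts at P10 and 1501, 1498 and 1473 at P20 (−1.55 ± 0.08, adjusted p = 3.44e-10). Tfcp2l1, a STAT3 target that maintains the naive state, was at 8660.3, 9091 and 9216 at P10 and 5521, 5034 and 4694 at P20 (−0.82 ± 0.10). Gbx2, another LIF target, was at 598, 614 and 683 at P10 and 243, 242 and 224 at P20 (−1.41 ± 0.14). The P10 and P20 libraries of each were well apart. The Serum/LIF passage change was positive for each, with log2 fold changes of 1.01, 0.63 and 1.27, and the direct test of the difference gave −2.56 for Tbx3 (adjusted p = 1.01e-10), −1.46 for Tfcp2l1 (adjusted p = 6.28e-07) and −2.69 for Gbx2 (adjusted p = 3.82e-08).

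The other naive genes that fell were Klf4 (−0.69), Zfp42 (−0.54), Nr0b1 (−0.54), Nr5a2 (−0.62), Tcl1 (−0.93) and Dppa5a (−1.07). The fall of Dppa5a rested on a spread-out P10 group, with 21898, 32439 and 45519 normalized counts at P10 and 14449, 16366 and 16659 at P20, and its adjusted p of 0.00873 ranged up to 0.0615 over the alternatives, not passing in 7 of 14. The naive gene that rose was Tfap2c, a factor of the germline and of the naive enhancer network, which was at 311, 305 and 259 at P10 and 1014, 918 and 948 at P20 (1.70 ± 0.12). Dppa3, a germline and naive gene, had a larger but less precise difference, at 5.63, 7.79 and 9.16 at P10 and 37.2, 33.6 and 40.6 at P20 (2.39 ± 0.81, adjusted p = 0.0267), and did not pass. The number of naive genes higher was 2 by DESeq2, with the replicate block, without the filter on low counts and when the EMM groups were fitted alone. Esrrb, Prdm14, Klf2, Klf5, Fbxo15 and Fgf4 did not pass.

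Of 13 formative and primed genes, 6 were higher and 1 lower, and the median was 0.66, against −0.29 in Serum/LIF and −0.58 in 2i/LIF. With at least 10 counts required in every library 3 were higher and the median was 0.46. Zic2 (chr14:122475435-122479852), a zinc finger factor of the primed epiblast, was at 107, 62.3 and 66.4 normalized counts at P10 and 468, 534 and 564 at P20 (2.65 ± 0.23, adjusted p = 1.08e-07). Pou3f1, also called Oct6, was at 88.4, 84.2 and 91.6 at P10 and 374, 407 and 469 at P20 (2.24 ± 0.13). In Serum/LIF it was at 839 ± 62.2 at P10 and 416 ± 18.5 at P20. Dnmt3b was at 4203, 3515 and 3157 at P10 and 5746, 6439.7 and 6157 at P20 (0.75 ± 0.12). Fgf5, a defining gene of the epiblast after implantation, was at 22.5, 31.2 and 52.7 at P10 and 102, 113 and 149 at P20 (1.88 ± 0.30). The P20 libraries were above the P10 libraries for each of the 4. Lef1 (2.38) and Fgf15 (1.74) also rose, Otx2 was at 596, 502 and 421 at P10 and 789, 774 and 865 at P20 (adjusted p = 0.0207), and Foxd3, a factor needed to leave the naive state, fell, from 710.4, 659 and 935 at P10 to 325, 316 and 287 at P20 (−1.30 ± 0.15).

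**Figure D3:**
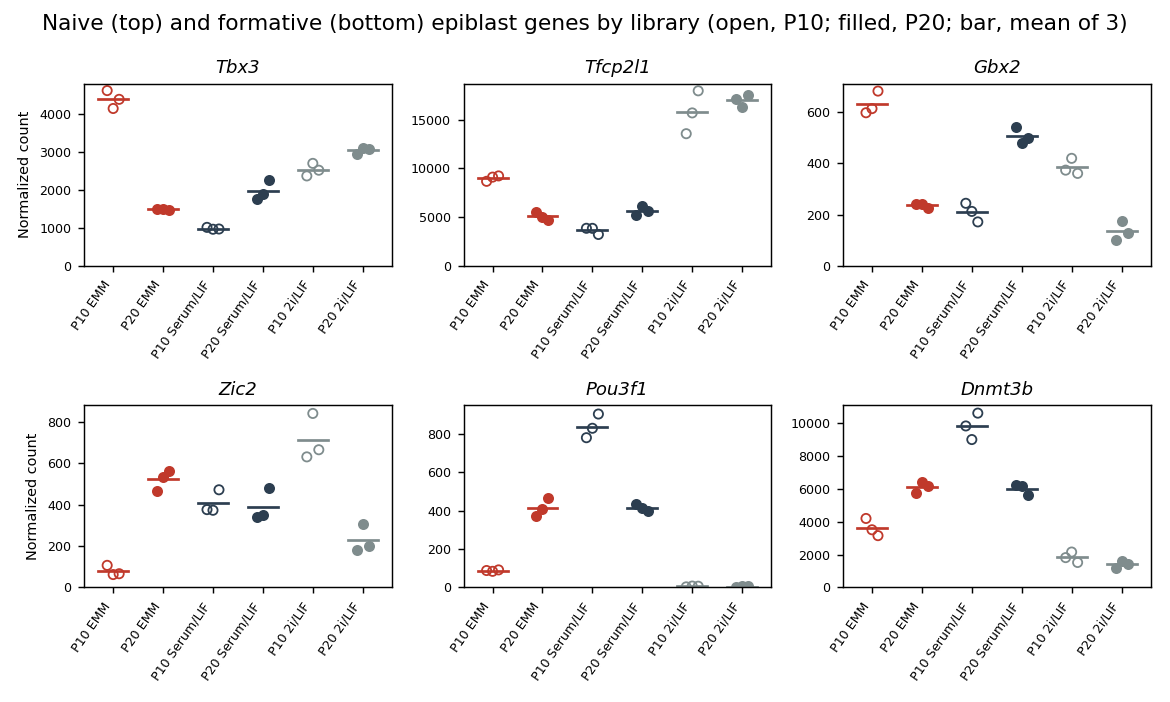
Normalized counts of 3 naive genes (Tbx3, Tfcp2l1, Gbx2) and 3 formative genes (Zic2, Pou3f1, Dnmt3b) in each passage library of the 3 media. Open circles are P10, filled circles P20 and bars means of 3 libraries, and in EMM the naive genes are lower and the formative genes higher at P20, with no overlap between passages.

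The core factors moved less. Of 8 core pluripotency genes, 1 fell and 1 rose. Pou5f1, which encodes Oct4, fell (−0.61 ± 0.09, adjusted p = 6.85e-05, with the library values given above), and Lin28a rose, from 6208, 6529 and 6348 at P10 to 8388, 9093 and 8645 at P20 (0.45 ± 0.10). Nanog was at 4021, 3819 and 3711 at P10 and 3628, 3526 and 3380.2 at P20 (−0.13 ± 0.11, adjusted p = 0.348). Sox2 was at 6799.8, 6884 and 6872 at P10 and 6029, 5965 and 6216 at P20 (−0.17 ± 0.07, adjusted p = 0.0504), and neither passed, nor did Sall4 (−0.11 ± 0.07). The study plotted 3 sets of 6 genes from these samples, so their counts are not independent evidence: of its embryonic genes, 3 fell (Pou5f1, Nr0b1 and Sirt1) and 0 rose (also 0 at an unadjusted p under 0.05 in edgeR and by DESeq2), of its apoptosis genes 1, Bid, passed, falling by 0.64 (2 passed without P20 EMM replicate 1), and of its extra-embryonic genes Col4a1 and Col4a2 fell and Lrp2 rose. The other 3 of its extra-embryonic genes did not pass. Dusp4, a phosphatase of the MAP kinases, was at 965, 876 and 1038 at P10 and 1303, 1289.7 and 1406 at P20 (0.48 ± 0.14, adjusted p = 0.0118) and was called higher under 5 of 14 alternatives, DESeq2 and library totals among them, so that 2 of these genes rose there. Gata6 was at 8.84, 12.5 and 11.5 at P10 and 13.95, 25.2 and 34.1 at P20 (adjusted p = 0.0454). Sox7 was at 36.97, 40.5 and 18.3 at P10 and 28.8, 29.7 and 40.6 at P20. Gata4, which is not among the 6, was at 32.1, 18.7 and 43.5 at P10 and 47.4, 71.6 and 76.9 at P20 (adjusted p = 0.0109) and did not pass.

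Signalling genes changed pathway by pathway. Wnt signals stabilise β-catenin, which acts through Lef1 and Tcf factors. Of 18 Wnt genes, 8 rose and 2 fell, with a median of 0.63 (1 fell without P10 EMM replicate 1 or 3 or P20 EMM replicate 1 or 3). With at least 10 counts required in every library 5 rose and 1 fell, and the median was 0.33. Lef1 was at 86.8, 60.8 and 89.3 normalized counts at P10 and 366, 415 and 453 at P20 (2.38 ± 0.16, adjusted p = 7.34e-09), and its direct difference from Serum/LIF was 1.88 (adjusted p = 5.07e-06). Ccnd2, a cyclin, was at 7.23, 10.9 and 4.58 at P10 and 31.6, 38.05 and 22.5 at P20. Rnf43, which removes Wnt receptors, was at 2.41, 6.23 and 4.58 at P10 and 26.05, 16.8 and 15.96 at P20 (a call lost without P10 EMM replicate 1 and with thinned libraries, where the adjusted p ranged up to 0.125). The secreted Wnt inhibitor gene Notum fell, from 775, 804 and 999 at P10 to 332, 375 and 362 at P20 (−1.26 ± 0.15). Axin2, a general readout of the pathway, did not pass. In 2i/LIF, which holds a GSK3 inhibitor, the median was −1.16 and 12 of the genes fell, against 15.2% of all genes that fell there by adjusted p alone.

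BMP signals act through Smad1 and Smad9 on the Id genes and help to hold ESCs undifferentiated in serum. The ligand gene Bmp4 was at 2823, 2776 and 2435 normalized counts at P10 and 660.5, 617 and 620.2 at P20 (−2.08 ± 0.20, adjusted p = 4.81e-07), with no overlap between passages, and its target Id1 at 1146, 1294 and 1743 at P10 and 447, 391 and 381 at P20 (−1.77 ± 0.15). Id4 also fell. Id2 was at 609, 502 and 389 at P10 and 877, 829.8 and 852 at P20. Smad6 was at 58.7, 42.1 and 43.5 at P10 and 75.4, 94.00 and 83.4 at P20. Both were higher, with calls lost in 4 of 14 alternatives each and adjusted p of up to 0.019 and 0.0493. Of 16 genes in the list, 2 rose and 4 fell, with a median of −0.55, against −0.22 in Serum/LIF and −0.05 in 2i/LIF. Both rises were lost without P10 EMM replicate 2 or 3 and 1 of them without any of the P20 EMM replicates.

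Nodal, a ligand of the TGFβ family made by the epiblast, did not pass at 975, 996 and 1155 at P10 and 916, 883 and 958 at P20, but its extracellular antagonist gene Lefty1 rose, from 498, 433 and 410.0 at P10 to 1133, 1240.5 and 1309 at P20 (1.45 ± 0.19), as did the Smad co-repressor gene Skil, from 2848, 2489 and 2176 at P10 to 5123, 5359.8 and 5229 at P20 (1.06 ± 0.10). Pcsk6, a protease that cleaves the Nodal precursor, fell, from 1845, 1722 and 1872 at P10 to 644, 660.3 and 588 at P20 (−1.52 ± 0.09), and so did the inhibitory Smad7 (−0.90) and the Nodal co-receptor Tdgf1 (−0.44). In all, 5 of 13 Nodal genes rose and 3 fell, and 2 rose without P10 EMM replicate 2.

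Among 22 genes of the ERK output list, 6 fell and 2 rose. The number that fell was 3 with at least 10 counts required in every library, 10 by DESeq2 and 11 when the EMM groups were fitted alone, and the number that rose was 4 by DESeq2 and with library totals and 5 without the filter on low counts. Phlda1 was at 496, 570.5 and 575 at P10 and 127, 139 and 118 at P20 (−2.09 ± 0.16). Etv4 was at 1631, 1679 and 1516 at P10 and 739, 709 and 634 at P20 (−1.22 ± 0.13). In contrast Fgfr2, the FGF receptor of the primitive endoderm and of other epithelia, rose from 57.9, 35.8 and 43.5 normalized counts at P10 to 531, 554 and 588 at P20 (3.55 ± 0.18, adjusted p = 2.96e-10), above the Serum/LIF level of 356 ± 18.1 at P10 and 265 ± 7.42 at P20. Of 13 LIF and STAT3 genes, 4 fell and 1 rose: Socs3, the feedback inhibitor of the LIF receptor, was at 3272, 3162 and 3278 at P10 and 1334, 1487 and 1152 at P20 (−1.29 ± 0.13), Junb and Pim3 fell, and Pim1 rose (0.50).

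Part of the nuclear genes of the respiratory chain fell. Of 52 genes tested, 19 fell and 0 rose (1 rose at an unadjusted p under 0.05 in edgeR and 0 by DESeq2), with a median log2 fold change of −0.35, and the P20 libraries stood at −0.42, −0.32 and −0.30 relative to the P10 mean. Medians were −0.15 in Serum/LIF and 0.20 in 2i/LIF. Members of each complex fell, and the medians were −0.35 for 23 genes of complex I, −0.37 for 2 of complex II, −0.3 for 6 of complex III, −0.36 for 11 of complex IV and cytochrome c, and −0.35 for 10 of the ATP synthase. Ndufb3 of complex I was at 722, 930.5 and 1173 normalized counts at P10 and 438, 493 and 561 at P20 (−0.91 ± 0.18), and Cox6b1 of complex IV at 2936, 3515 and 4153 at P10 and 1782, 2007 and 2059 at P20 (−0.85 ± 0.16). The P10 libraries stood at −0.12, 0.03 and 0.10 on the same scale, so the groups did not overlap. The number that fell was between 2 and 7 when P10 EMM replicate 2 or 3 or any P20 EMM replicate was left out and 10 with scaling by library totals, although the median stayed between −0.41 and −0.27 under every alternative run. By the direct test against Serum/LIF 0 of the 52 differed at an adjusted p under 0.01, beside 8.28% of all genes that were more positive and 6.43% more negative (13 were more negative in EMM at an unadjusted p under 0.05, and 0 differed by DESeq2).

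Transcripts of the mitochondrial genome made up 1.88, 1.27 and 0.848% of counts at P10 and 2.26, 2.32 and 2.54% at P20 in EMM, 1.33 ± 0.518% against 2.38 ± 0.147% (SD, n = 3). The groups did not overlap, and the exact two-sided permutation test gave p = 0.1, the smallest that 3 against 3 allows. Serum/LIF showed a like rise, from 1.08 ± 0.135% to 2.2 ± 0.0411%, whereas in 2i/LIF the groups overlapped. Of the 15 mitochondrial genes, 2 passed as higher, mt-Nd4l (2.39 ± 0.50) and mt-Nd5, whose call was lost with the replicate block and without any EMM library but P10 replicate 1 (adjusted p up to 0.0429). The number higher was 6 when only the EMM groups were fitted and 12 without the filter on low counts, and in the fit of all 18 libraries the 2 ribosomal RNAs fell, mt-Rnr1 by 0.80 and mt-Rnr2 by 0.64. Both are counted in the share. The paper's methods give depletion of ribosomal RNA, and how complete it was in each library is not given, so its part in these values cannot be told. The P10 library with the smallest mitochondrial share was the one with the highest Ndufb3 and Cox6b1, and the part of such differences between P10 libraries in these results was not tested.

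**Figure D4:**
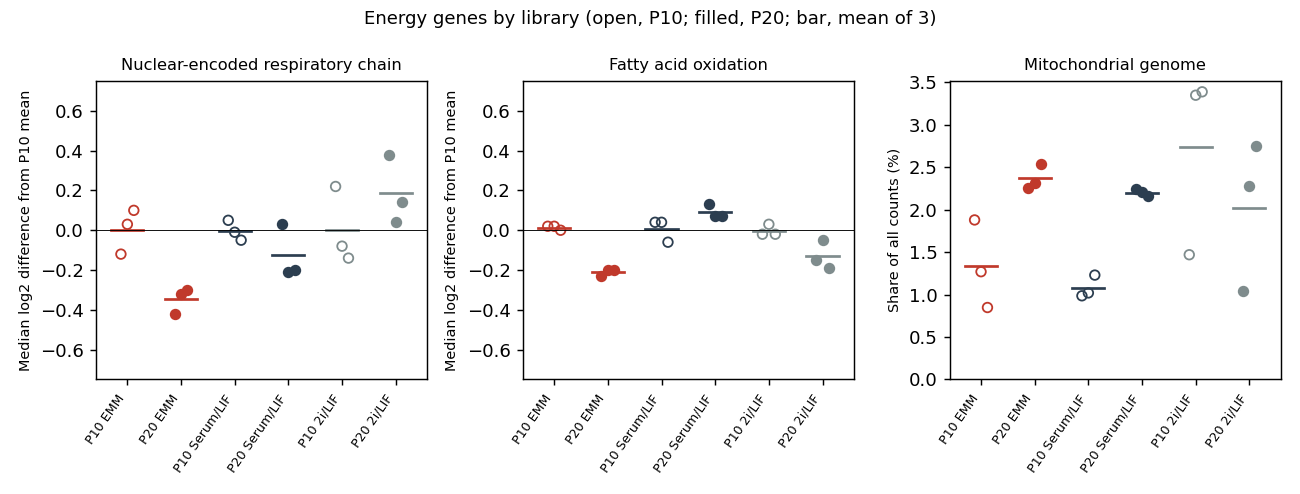
Left and middle, median log2 difference of the nuclear-encoded respiratory chain genes and the fatty acid oxidation genes from the mean of the P10 libraries of the same medium; right, share of all counts from the mitochondrial genome (%). Open circles are P10 libraries, filled circles P20 libraries and bars means of 3, and in EMM both nuclear sets lie below 0 in all 3 P20 libraries while the mitochondrial share lies above that of each P10 library.

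Fatty acid oxidation genes fell in a subset and none rose. Of 20 genes, 7 were lower and 0 higher (also 0 higher at an unadjusted p under 0.05 in edgeR and by DESeq2), with a median of −0.21 over the list, against 0.08 in Serum/LIF and −0.14 in 2i/LIF, where 7 were also lower (15.2% of all genes were). Acaa2, the mitochondrial thiolase that ends each round of β-oxidation, was at 1603, 1683 and 1755 normalized counts at P10 and 419.6, 441 and 432 at P20 (−1.96 ± 0.09, adjusted p = 1.65e-10), against 404 ± 32.8 at P10 and 509 ± 28.4 at P20 in Serum/LIF. Slc25a20, which carries acyl-carnitines into the matrix, was at 1231, 1266 and 1200.3 at P10 and 428, 441 and 437 at P20 (−1.50 ± 0.12). Acadvl, the first dehydrogenase for long chains, was at 387, 435 and 547 at P10 and 203, 215 and 200.2 at P20 (−1.13 ± 0.14). All 3 had every P20 library below every P10 library. The medium-chain and short-chain dehydrogenase genes Acadm (−1.03) and Acads (−1.01) fell as well. Cpt1a, which controls entry of fatty acids, did not pass.

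In the pyruvate entry and TCA cycle list, 9 of 33 genes fell and 5 rose. Idh2, mitochondrial isocitrate dehydrogenase, was at 4648, 4859.8 and 4907 normalized counts at P10 and 2628, 2651 and 2814 at P20 (−0.83 ± 0.07, adjusted p = 7.49e-08), still above the 1316 ± 87.9 at P10 and 1269 ± 56.8 at P20 of Serum/LIF. Sucla2, a subunit of succinyl-CoA synthetase, was at 1981, 2375 and 2295 at P10 and 1014, 1199 and 1174 at P20 (−0.97 ± 0.11), while Suclg2, the other form of that subunit, rose (0.58).

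Of 10 genes in the Leloir list, whose core carries galactose to glucose phosphates, 4 fell and 1 rose, and 2 fell without P10 EMM replicate 3 or P20 EMM replicate 1. Galk1, the galactokinase, was at 1547, 1676 and 1975 at P10 and 1758, 1889.6 and 1999 at P20. Galt, the uridylyltransferase, was at 369, 349 and 463 at P10 and 331, 335 and 283 at P20. Neither passed. Galk2 (−0.55), Ugp2 (−0.41) and Ugdh (−0.61) were among those that fell. Pgm1, a phosphoglucomutase, was at 1564, 1395 and 1768 at P10 and 3023, 2812 and 2989 at P20 (0.90 ± 0.23, adjusted p = 0.00517), but its call was lost when any 1 EMM library was left out, with an adjusted p of up to 0.0295. Galm, Pgm2 and B4galt1 did not pass.

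Of 7 genes that sense and import glucose, 2 rose, beside 13.3% of all genes. The transporter gene Slc2a3 was at 17270.0, 15369 and 15463 normalized counts at P10 and 27052, 25664 and 26191 at P20 (0.71 ± 0.08, adjusted p = 2.54e-06). Mlxip, which encodes a glucose-sensing factor, was higher by 0.42, a call lost without any EMM library but P10 replicate 1, with an adjusted p of up to 0.0617, so that 1 gene rose there. Slc2a1 was at 9236, 9049 and 9688 at P10 and 12077, 11698 and 11749 at P20 (adjusted p = 0.0421). The glucose-responsive genes Txnip, at 27.3, 43.6 and 50.4 at P10 and 26.98, 21.3 and 22.5 at P20, and Arrdc4, at 57.9, 63.9 and 50.4 at P10 and 44.7, 72.7 and 45.7 at P20, did not pass, although Arrdc4 had fallen by 3.91 on the log2 scale at 24 h of EMM. Of 22 glycolysis genes, 5 rose and 2 fell, but only 2 or 3 rose without any 1 EMM library, and 8 did without the filter on low counts or when the EMM groups were fitted alone. Pfkfb3, which makes the main activator of phosphofructokinase, was at 501, 455 and 497 at P10 and 1416, 1297 and 1374 at P20 (1.49 ± 0.21), and the lactate exporter gene Slc16a3 at 2587, 2289.6 and 2178 at P10 and 4697, 4757 and 4944 at P20 (1.03 ± 0.26), a call lost when any EMM library but P10 replicate 1 was left out, with an adjusted p of up to 0.0233.

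The hypoxia response list, whose genes answer to the factors Hif1a and Epas1, had 8 of 16 members higher and 2 lower, and 5 higher without P10 EMM replicate 2 or 3 or P20 EMM replicate 3. Egln3 was at 477, 382 and 341 normalized counts at P10 and 1391, 1197 and 1465 at P20 (1.74 ± 0.21). Egln1 was at 638, 514 and 632 at P10 and 1873, 1609 and 1709 at P20 (1.54 ± 0.17). P4ha2, a collagen prolyl hydroxylase, was at 215, 182 and 218 at P10 and 596, 628 and 654 at P20 (1.61 ± 0.14). The P20 libraries of each lay above the P10 libraries. The 2 that fell were the factors themselves, Epas1, from 2344, 2291 and 2039 at P10 to 760.0, 769.9 and 721 at P20 (−1.57 ± 0.10), and Hif1a, by 0.39. The list medians were 0.38 in EMM, 0.34 in Serum/LIF and 0.33 in 2i/LIF.

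Nrf2 is the factor that switches on antioxidant genes, and members of its list fell. Of 20 members 10 were lower and 0 higher (1 higher at an unadjusted p under 0.05 in edgeR and 0 by DESeq2), and the median was −0.41. Nqo1, a quinone reductase, was at 1559, 1493 and 1289.7 normalized counts at P10 and 474, 506 and 480.2 at P20 (−1.58 ± 0.12, adjusted p = 4.87e-08), against 202 ± 30.9 at P10 and 259 ± 29.3 at P20 in Serum/LIF, and it differed from Serum/LIF by −1.94 (adjusted p = 6.67e-07). The thioredoxin gene Txn1 was at 6571, 8614 and 9142 at P10 and 4043, 4447 and 4535 at P20. Gsta4, a glutathione transferase, was at 7654, 9723 and 10586 at P10 and 4713, 5209 and 5085 at P20. The targets Hmox1 and Gclm did not pass, Hmox1 being at 1038, 869.7 and 925 at P10 and 1252, 1163 and 1121 at P20. Gclm was at 1756, 1733 and 1663 at P10 and 1729, 1674 and 1624 at P20.

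Amino acid and stress genes were mixed, with 7 of 30 genes of the integrated stress response and serine list higher and 7 lower. Asns, asparagine synthetase, was at 6854, 7562 and 7294 normalized counts at P10 and 2836, 2818 and 2883 at P20 (−1.35 ± 0.07, adjusted p = 5.32e-10). Cth, which makes cysteine, was at 2639, 2556 and 2834 at P10 and 1132, 1129 and 1142 at P20. Both fell, while Stc2 (1.55), Chac1 (1.19) and Ddit4, an inhibitor of mTORC1 at 767, 709 and 751 at P10 and 1726, 1735 and 2033 at P20 (1.30 ± 0.15), rose. Of 18 AMPK and growth control genes, 6 rose and 1 fell. In the lysosome and V-ATPase list 7 of 30 rose and 6 fell: the lysosomal channel gene Mcoln1 was at 573, 519 and 561 at P10 and 1240.1, 1077 and 1144 at P20 (1.06 ± 0.10), while Tfeb, a master factor of lysosome genes, was at 1508, 1672 and 1729.5 at P10 and 872, 1014 and 901 at P20 (−0.81 ± 0.15). Of the sirtuin and NAD genes, 4 of 16 fell and 1 rose. Sirt1, the nuclear deacetylase, was at 5724, 6102 and 5548 normalized counts at P10 and 3444, 3399 and 3348 at P20 (−0.77 ± 0.07, adjusted p = 2.32e-07). The NAD hydrolase gene Cd38 was at 714, 676 and 534 at P10 and 158, 154 and 190.0 at P20 (−1.95 ± 0.20). Nampt, the rate-limiting enzyme of NAD salvage, was at 3939, 3597 and 3241 at P10 and 5739, 5444 and 5860.2 at P20 (0.66 ± 0.09), so Sirt1 and Cd38 fell and Nampt rose, with no overlap between passages.

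Of 21 serum-response and actin genes, 10 were higher and 3 lower, with a median of 0.47, against −0.50 in Serum/LIF and 0.14 in 2i/LIF. With at least 10 counts required in every library 4 were higher and the median was 0.16, and without P20 EMM replicate 2 the number lower was 1. Cnn1, smooth muscle calponin, was at 3.21, 7.79 and 6.87 normalized counts at P10 and 72.6, 95.7 and 79.8 at P20 (3.94 ± 0.34, adjusted p = 1.13e-07), and Serum/LIF held 181 ± 2.54 at P10 and 80.5 ± 17.1 at P20. Acta1, skeletal muscle actin and no member of this list, was at 3.21, 4.68 and 11.5 at P10 and 66.05, 55.95 and 71.1 at P20. Further members, named after their values were seen, were Acta2 at 33.8, 28.1 and 41.2 at P10 and 254, 260.2 and 238 at P20 (2.89 ± 0.25), and Tagln at 52.2, 43.6 and 103 at P10 and 339.6, 386 and 397 at P20 (2.61 ± 0.25). Myl9 was at 28.1, 34.3 and 50.4 at P10 and 139, 161 and 152 at P20 (2.07 ± 0.26). These genes are markers of contractile cells, and they were chosen as rises or after their values were seen, so their shared direction follows from the choice. Actg2, another actin gene of the list, had at most 1 count in a P10 and 3 in a P20 EMM library and was not tested. The list members that fell were Anxa1, S100a10 and Ccn2. Ankrd1 had 0 counts in all 3 P10 libraries and 2.79, 9.51 and 7.98 normalized counts at P20. The serum-response factor Srf itself did not pass.

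In the adhesion and epithelial-mesenchymal list 10 of 18 genes rose and 1, the integrin gene Itga6 (−0.49), fell. Esrp1, which directs epithelial splicing, was at 216, 167 and 121 normalized counts at P10 and 1151, 1253 and 1197 at P20 (2.78 ± 0.24, adjusted p = 1.17e-07), and the tight junction gene Cldn7 at 39.4, 68.6 and 50.4 at P10 and 232, 269.7 and 243 at P20 (2.28 ± 0.15). Cldn6 (1.95), Cdh3 (1.72) and Cdh1, E-cadherin (1.07), rose too, and so did Zeb2 (2.19), a repressor of epithelial genes.

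Extracellular matrix genes went down more often than up, 9 of 19 lower and 4 higher. Col4a1, a basement membrane collagen, was at 3169, 3049 and 3434 normalized counts at P10 and 1039, 1216 and 1226 at P20 (−1.47 ± 0.15). Sparc was at 4087, 4342 and 4799 at P10 and 1767, 1948 and 2001 at P20 (−1.21 ± 0.14), while the laminin gene Lamb1 rose, from 698, 676 and 731 at P10 to 1657, 1985 and 1923 at P20 (1.41 ± 0.20). The primitive endoderm list shared several of these genes and was split, with 5 of 18 tested members higher and 5 lower. Its median of 0.72 turned to −0.32, with 2 higher and 3 lower, when genes needed at least 10 counts in every library. Cubn, Dab2, at 31.3, 17.1 and 13.7 at P10 and 98.6, 122 and 136 at P20 (2.38 ± 0.36), and Lrp2, at 873, 932 and 685 at P10 and 1651, 1888 and 1625 at P20 (1.05 ± 0.17), which act together in endocytosis in the visceral endoderm, were among those that rose, and the 5 that fell all encode matrix proteins, Col4a1, Col4a2, Sparc, Lama1 and Lamc1. Of the trophectoderm list 4 of 14 rose (2 without P10 EMM replicate 1) and 2 fell, with Krt19 at 109, 91.96 and 126 at P10 and 306, 313 and 346 at P20, and neither Eomes, at 170.4, 171 and 115 at P10 and 126, 132 and 135 at P20, nor Gata3, at 17.7, 6.23 and 6.87 at P10 and 12.1, 10.6 and 6.53 at P20, passed.

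Of 7 neural and ectoderm genes tested 2 rose, Pax6 and Nes (1 of them without P10 EMM replicate 1 or P20 EMM replicate 2), and of 8 mesoderm and definitive endoderm genes 2 rose, T and Wnt3, and 1 fell, beside 13.3% and 11.9% of all genes. The calls of T and Wnt3 were both lost without P10 EMM replicate 1 or 2 or P20 EMM replicate 2 or 3, and 1 of them without either of the other EMM libraries. Both were also lost with libraries thinned to the smallest, and that of Wnt3 with the replicate block. Pax6, a factor of the neural plate and eye, was at 7.23, 10.9 and 16.04 normalized counts at P10 and 107, 84.5 and 85.6 at P20 (3.13 ± 0.48, adjusted p = 6.7e-05), and the mesoderm factor T at 2.41, 6.23 and 2.29 at P10 and 33.5, 19.02 and 18.1 at P20 (adjusted p = 0.00984), a call that was lost when any 1 EMM library was left out, with an adjusted p of up to 0.0766. Kdr, the VEGF receptor of early mesoderm, fell, from 93.2, 103 and 82.5 at P10 to 27.9, 16.2 and 28.3 at P20 (−1.96 ± 0.35). Of 10 fibroblast and feeder genes tested, 2 rose and 2 fell. The mesenchymal filament gene Vim fell, from 8754, 9400.0 and 9353 at P10 to 3044, 3286 and 3258 at P20 (−1.52 ± 0.16), against a passage change of 0.73 in Serum/LIF, and Thy1, a surface glycoprotein, fell from 357, 304 and 259 at P10 to 85.6, 135 and 128 at P20 (−1.40 ± 0.22). The collagen gene Col1a1 rose, from 4.82, 9.35 and 18.3 at P10 to 32.6, 35.3 and 27.6 at P20 (adjusted p = 0.00763), and so did Col3a1, from 0, 3.12 and 2.29 at P10 to 12.1, 8.39 and 7.98 at P20 (adjusted p = 0.00651). Both calls were lost without P10 EMM replicate 1 or any P20 EMM replicate and 1 of them without P10 EMM replicate 2 or 3, with adjusted p of up to 0.098 and 0.0708. The replicate block and the libraries thinned to the smallest also removed both calls.

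The cell cycle list held 4 of 32 genes that rose (2 without P10 EMM replicate 3) and 5 that fell. Ccnd1 rose, as given above, whereas E2f2 was at 584, 575 and 614 normalized counts at P10 and 213, 241 and 206 at P20 (−1.42 ± 0.12, adjusted p = 1.08e-07), and Cdk2 (−0.66) and Ccne1 (−0.56) fell. Myc was at 1302, 1082 and 1198 at P10 and 924, 917 and 948 at P20 (−0.36 ± 0.12, adjusted p = 0.0246) and did not pass. Of the 23 Bcl2 family, caspase and death receptor genes, 4 rose and 4 fell (2 without P10 EMM replicate 2 or 3). The pro-apoptotic Bcl2l11 was at 279.7, 262 and 218 at P10 and 607, 622 and 634 at P20 (1.28 ± 0.15), and the pro-survival Bcl2l1 at 1275, 1435 and 1658 at P10 and 646, 736 and 683 at P20 (−1.07 ± 0.11). Of 20 p53 targets 1 rose and 2 fell, by the same rule, with the rise lost without P10 EMM replicate 2 or 3 or P20 EMM replicate 1 or 3, and 1 of the falls without any EMM library but P10 replicate 1.

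Imprinted genes, expressed from 1 parental allele, had 11 of 41 members higher and 6 lower. The number higher was 5 without P10 EMM replicate 3 and 6 or 7 without any other EMM library but P20 replicate 2. H19, a long non-coding RNA of the Igf2 locus, was at 29.7, 26.5 and 20.6 normalized counts at P10 and 109.8, 90.1 and 90.7 at P20 (1.84 ± 0.34), and its neighbour Igf2 rose by 1.59 on the log2 scale. Zfp57, which protects methylation at imprinted regions, was at 7400.2, 6972 and 9026 at P10 and 4078, 3809 and 3606 at P20 (−1.02 ± 0.10, adjusted p = 6.36e-07), and it rose in Serum/LIF by 0.69, a direct difference of −1.72 (adjusted p = 1.47e-07). Ddc (−1.16) and Plagl1 (−0.98) fell. Of 14 DNA methylation genes 5 fell and 2 rose. The number that fell was 1 without P10 EMM replicate 3 or P20 EMM replicate 1 or 3 and 3 without P10 EMM replicate 1 or P20 EMM replicate 2, and the number that rose was 1 without P10 EMM replicate 2 or 3 or P20 EMM replicate 1 or 2. Dnmt3l was at 14299, 16874 and 19813 at P10 and 7406, 8156 and 7419.8 at P20 (−1.15 ± 0.26), a call lost without P10 EMM replicate 3 or P20 EMM replicate 1 or 3, with an adjusted p of up to 0.0125. Germline genes that methylation silences had 5 of 23 higher (2 or 3 without P10 EMM replicate 1 or 2 or P20 EMM replicate 2 or 3) and 1 lower, led by Sycp3, of the meiotic chromosome axis, at 323, 332 and 227 at P10 and 776, 816 and 971 at P20 (1.52 ± 0.16). Of 9 tested genes of the 2-cell state, 0 passed in either direction in edgeR, with 0 at an unadjusted p under 0.05 and 0 by DESeq2.

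**Figure D5:**
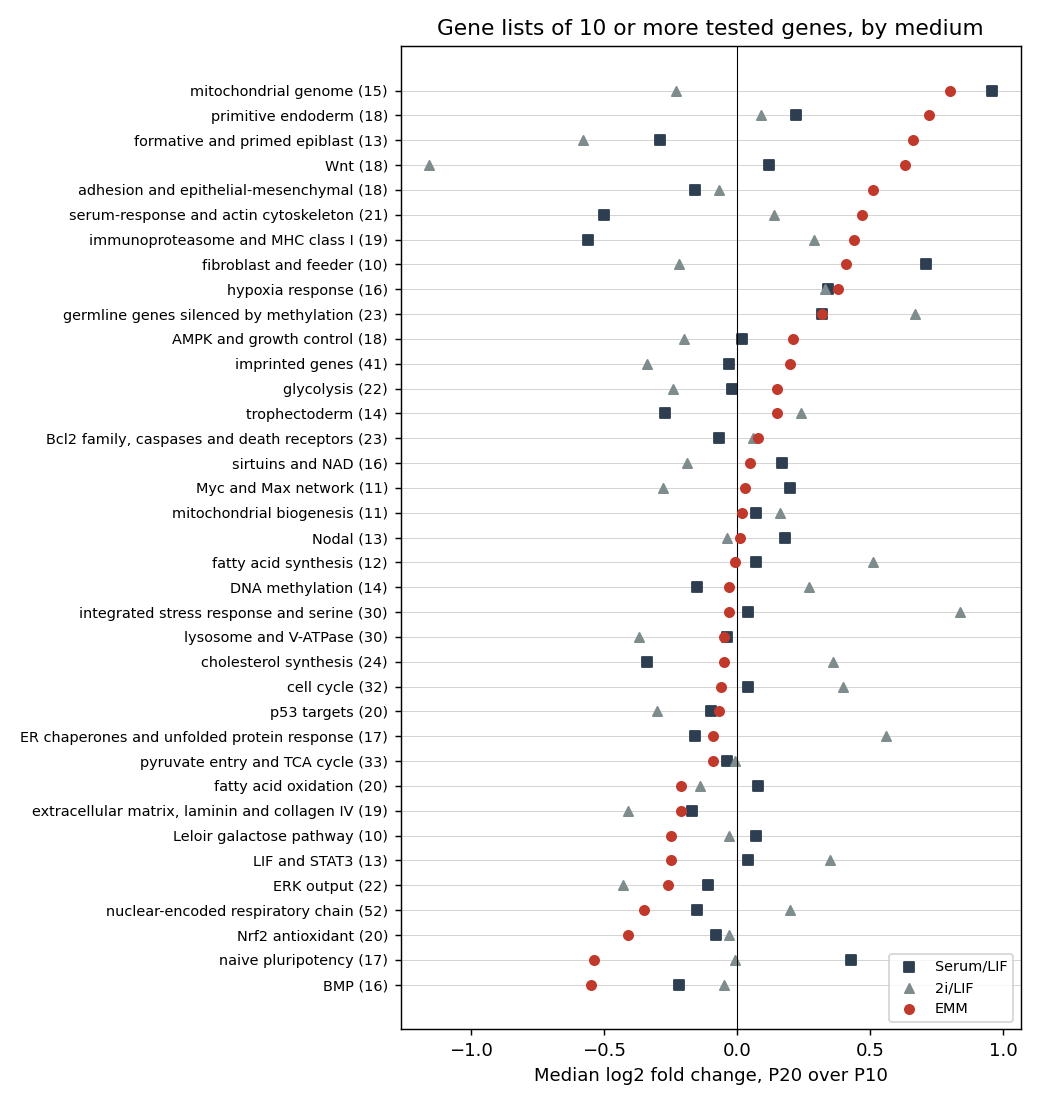
Median log2 fold change of P20 over P10 for each gene list with 10 or more tested genes, in EMM (circles), Serum/LIF (squares) and 2i/LIF (triangles); the number of tested genes is in brackets. In EMM the BMP (−0.55), naive pluripotency (−0.54) and Nrf2 (−0.41) lists have the lowest medians and the mitochondrial genome (0.8), primitive endoderm (0.72) and formative (0.66) lists the highest, although the primitive endoderm median is −0.32 when genes need at least 10 counts in every library.

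The remaining lists are given by their counts, beside the 13.3% of all genes that were higher and 11.9% lower. Cholesterol synthesis had 4 of 24 genes higher and 2 lower, fatty acid synthesis 2 and 1 of 12, chaperones of the endoplasmic reticulum 2 and 5 of 17, mitochondrial biogenesis 0 and 2 of 11, threonine and glycine breakdown 0 and 2 of 6, and the Myc and Max network 2 and 0 of 11. Without 1 EMM library the cholesterol rises were 1 or 2 (P10 replicate 2 or 3, P20 replicate 2 or 3) and both of its falls were lost (any but P10 replicate 1). The fatty acid synthesis rises were 1 (P10 replicate 2 or 3, P20 replicate 1 or 3), the chaperone falls 3 (P10 replicate 3 or any P20 replicate), and the mitochondrial biogenesis falls 1 (P10 replicate 2) or lost (P10 replicate 3 or any P20 replicate). Tdh, the threonine dehydrogenase on which mouse ESCs depend, was at 8385, 8577 and 8618 at P10 and 5576, 5575 and 5426 at P20 (−0.63 ± 0.08). Of 5 X inactivation genes, Ftx and Rlim rose, Rlim being at 2642, 2405 and 2382 at P10 and 3944, 4012 and 4019 at P20 (0.69 ± 0.08).

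Long-cultured mouse ESCs can gain chromosomes. The median difference between P20 and P10 in EMM ran from −0.02 on chromosome 4 to 0.1 on chromosome 12, where a gain of 1 copy in all cells would give 0.58 and the largest difference was 0.18 with scaling by library totals. In 2i/LIF the highest was 0.33, on chromosome 8. The X chromosome was at 0.07. Y-linked genes were expressed in each EMM library, with Eif2s3y at 1252, 1259 and 1196 at P10 and 1128, 1176 and 1220.1 at P20. Uty was at 698, 679.6 and 557 at P10 and 834, 783 and 778 at P20, and Ddx3y was at 1619, 1872 and 1466 at P10 and 1216, 1329 and 1252 at P20 (adjusted p = 0.0098, lost in 8 of 14 alternatives with an adjusted p of up to 0.0709). Zfy1 had 0 counts in P10 EMM replicate 3 and 25.7 to 83.7 normalized counts in the other 5 EMM libraries. By type, 5.97% of 14195 protein-coding genes were called higher and 2.91% lower, against 5.44% and 6.02% of 349 long intergenic RNAs.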

How the data were processed

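RNA-seq was performed on total RNA from E14tg2a cells with a directional kit, and the published methods name depletion of ribosomal RNA with Ribo-Zero. The passage table holds expected counts per gene deposited by the authors: 9.982% of its values are not whole, so they were rounded. The submitters' processing notes name STAR, Salmon, DESeq2 and the mm10 build, and the published methods give STAR with HTSeq. Versions and the use of strand in counting are not given in the sources used here, so reads of a gene and an antisense partner cannot be told apart. The time course table holds raw counts deposited by the authors. Libraries were grouped by their labels.

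Genes were filtered with filterByExpr (16054 of 55487 kept), scaled by TMM and tested with edgeR's quasi-likelihood test (edgeR 4.0.16, R 4.3.3) in one fit of 18 libraries with 12 residual degrees of freedom, with Benjamini-Hochberg adjustment over the genes tested. Genes were called at an adjusted p under 0.01 and a log2 fold change over 1 in size, and members of gene lists at the adjusted p alone. SE is the log2 fold change divided by the square root of F. On simulated data 99 of 100 genes with a log2 change of 2 and 100 of 100 with a change of 3 were recovered. These genes had a mean of at least 50 normalized counts, and counts were drawn from the fitted spread with no other difference between groups. Recovery of lower genes or of smaller changes was not tested. Replicates differed by more than counting noise (chi-square per degree of freedom 3.41 to 22.1), so no library was taken as deposited more than once. GENCODE M21 matched 16042 of the genes tested. Depth sets the precision, and a floor of 3 counts per library covers counting error only.

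The gene lists and members were chosen with earlier results of these data known. Named genes are the 14 largest rises and 14 largest falls that had a symbol other than a Gm, Rik or pseudogene name, a mean of at least 50 normalized counts in one group and no overlap between passages, up to 3 rises and 3 falls of each list, the genes the study shows for these media, the 3 largest interaction terms each way within the same filters, and galactose, glucose-sensing and Y-linked genes. Any other gene named with a value, among them Gbp3, Gbp7, Irf1, Klf4, Zfp42, Fgf5, Otx2, Nodal, Cdh1, Cldn6, Zeb2, Igf2, Acadm, Acads, Dppa3 and Hmox1, was chosen after its values were seen. Some genes that meet the rule are not reported here. Alternatives were other scalings (DESeq2 size factors, library totals), other filters, DESeq2 1.42.0, a fit of the contrast's groups alone, a replicate block, each replicate left out, and libraries thinned to the smallest, the last chosen after seeing the data.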

Additional observations from a re-analysis of the deposited data

Results flagged for a closer look

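The direct test of a difference between media set these results apart. The passage change was more positive in EMM than in Serum/LIF for 812 genes and more negative for 537, and more positive than in 2i/LIF for 1643 and more negative for 1011. Among genes with a symbol other than a Gm, Rik or pseudogene name, a mean of at least 50 normalized counts at P10 or P20 in EMM and no overlap between these groups, the largest differences from Serum/LIF on the log2 scale included 5.91 for Sema6a and 5.71 for Fndc3c1, and −4.68 for Matn1, −4.49 for Nkx6-3 and −4.21 for Trf. Nkx6-3, a homeobox factor of stomach endocrine cells, was at 189, 232 and 284 at P10 and 63.3, 44.2 and 40.6 at P20 in EMM and at 25.8 ± 16.4 at P10 and 124 ± 42.5 at P20 in Serum/LIF.

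Against 2i/LIF, within the same filters, the largest were 11.15 for Duxbl2, 8.12 for Slc23a1 and 7.93 for Egr1, and −5.14 for Adrb1, −5.05 for Fcgr2b and −4.88 for Msln. Duxbl2, a double homeobox gene, was at 19.3, 18.7 and 20.6 at P10 and 92.1, 111 and 114 at P20 in EMM. In 2i/LIF it stood at 9.42, 2.90 and 129 normalized counts at P10 and at 0 in all 3 P20 libraries, so the fitted difference depends on the prior count and on 1 P10 library. Slc23a1, a vitamin C transporter, was at 67.5, 23.4 and 13.7 at P10 and 329, 342 and 346 at P20 in EMM and 15.6 ± 12.98 at P10 and 0.246 ± 0.427 at P20 in 2i/LIF. Since its P20 libraries in 2i/LIF, and the P10 libraries of Adrb1 and Msln there, held 3 counts or fewer, these 3 differences also depend on the prior count. Fcgr2b, an inhibitory Fc receptor, was at 141, 112 and 119 at P10 and 47.4, 33.6 and 33.4 at P20 in EMM and 13.7 ± 12.8 at P10 and 121 ± 32.6 at P20 in 2i/LIF.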

How the results depend on the processing

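Of 240 named genes, 208 passed in EMM, and each of these was tested under 12 to 14 alternatives, as far as it passed their filters. Under those that tested it, 154 kept sign and call, 54 lost the call under 1 or more, and 0 changed sign. For EMM the numbers higher and lower were 917 and 507 by the DESeq2 Wald test, 1022 and 396 with library totals, 714 and 415 with libraries thinned to the smallest, and 690 to 847 and 381 to 491 without 1 EMM library. Of the calls, 55.4 to 72.1% were rises. Same-numbered replicates did not deviate together (correlations 0.016, 0 and 0.072), so the numbers do not pair the samples. With the replicate block the numbers were 853 and 462 for EMM, 175 and 98 for Serum/LIF, 568 and 1040 for 2i/LIF, 786 and 527 for EMM against Serum/LIF, and 1606 and 995 for EMM against 2i/LIF.

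With at least 10 counts required in every library, which tests 11166 genes, the numbers higher and lower fell to 352 and 283 in EMM, 101 and 35 in Serum/LIF and 296 and 468 in 2i/LIF, and the numbers of more positive changes to 445 against Serum/LIF and 1040 against 2i/LIF. Without a fold threshold they were 2139 and 1917 in EMM, 507 and 458 in Serum/LIF, 2111 and 2435 in 2i/LIF, 1329 and 1033 for EMM against Serum/LIF, and 2710 and 2480 for EMM against 2i/LIF. In Serum/LIF they were 335 and 200 without a filter, 399 and 176 at an adjusted p under 0.05, and 287 higher when only its own groups were fitted, a fit that gave 327 and 650 in 2i/LIF. Without 1 library they were 107 to 164 and 72 to 98 in Serum/LIF, lowest without P10 Serum/LIF replicate 1 or 2 for the rises, 436 to 676 and 890 to 1163 in 2i/LIF, 670 to 794 and 446 to 509 against Serum/LIF, and 1428 to 1809 and 835 to 1218 against 2i/LIF.

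With at least 10 counts required in every library the number of list members higher was 2 for immunoproteasome, 2 for trophectoderm, 3 for germline and 6 for imprinted genes. When the EMM groups were fitted alone 30 respiratory chain genes were lower, 6 cholesterol synthesis genes lower and 4 Myc network genes higher. With library totals 2 DNA methylation and 3 chaperone genes were lower. With thinned libraries 5 Wnt and 3 glycolysis genes were higher.

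The median of genes raised at 24 h was −0.01 with no fold threshold, −0.01 for the 9 h list, −0.35 with thinned libraries and −0.32 to −0.24 without 1 library, and that of genes lowered at 24 h was 0.11, 0.46, 0.58 and 0.57 to 0.66. The largest autosomal difference was 0.18 with library totals and 0.08 to 0.13 without 1 library, and the rise of the mitochondrial share 0.801 to 1.32 percentage points. The cause of these shifts was not tested, beyond the fewer genes or samples that an alternative holds. P10 EMM replicate 3 is the shallowest EMM library, with 7329835 counts.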

Other observations

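Beside the Gbp genes, 2 further runs of 4 consecutive tested genes were called in one direction from P10 to P20 in EMM, and both were found by looking through the results. On chr14:3810074-4204895 the predicted genes Gm3002, Gm5796, Gm8108 and Gm2974 rose, with log2 fold changes of 2.36 to 2.85 and a median of 2.68. They resemble each other in sequence, so their separate levels are uncertain. On chr17:36969195-37010635 the imprinting regulator gene Zfp57 and its neighbours H2-M5, H2-M6-ps and 2410137M14Rik, in the MHC region, fell, with log2 fold changes of −1.51 to −1.02 and a median of −1.08.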
